A study of Homo sapiens with 6 samples.

Results

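The Notch genes described here are 10 core components of a signalling pathway between neighbouring cells, taken from the 26870 genes that the deposited tables hold. They comprise the receptors NOTCH1, NOTCH2 and NOTCH3, the ligands JAG1, JAG2 and DLL1, and the target genes HES1, HEY1, HEYL and NRARP. The RefSeq entries of the tables were matched to gene symbols, and for each gene the entry on a primary chromosome with the largest mean read count stood for it. All 10 genes were found. The genes were chosen by name, with earlier results of these data known.

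In Notch signalling a ligand on one cell binds a receptor on its neighbour. Proteases of the ADAM family and then gamma-secretase cut the receptor, and its intracellular part moves to the nucleus. There it joins the DNA-binding protein RBPJ and a Mastermind-like co-activator and switches on genes such as the HES and HEY repressors and NRARP, a feedback inhibitor. In osteoblasts and osteosarcoma cells the pathway is known for effects on differentiation and growth, which depend on context. RNA levels do not measure receptor cleavage, and no protein was measured here.

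RNA was sequenced from U2OS 2-6-3 cells, a clonal human osteosarcoma line that carries a reporter gene array with tet operators. The 6 libraries formed 3 groups of 2, and every group was kept under white light overnight in medium with doxycycline-free serum. The sample group was transiently transfected with 3 constructs: CIBN-TetR and PHR-YFP-VP16, the parts of a light-controlled activator, and mCherry-MCP, which labels RNA. The mock group was transiently transfected with TetR-RFP and YFP by the same Roche reagent. The untransfected group received neither plasmid nor reagent. The comparisons address what transfection with either plasmid set does to the cells, and in what the plasmid sets differ. A difference from untransfected cells cannot be assigned to the plasmids, their proteins or the reagent, because these came together.

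Summed over entries, the sample group held 50105854 and 9579278 reads, the mock group 54177551 and 44594507, and the untransfected group 53596406 and 51146190. The deeper library of each group is called a and the shallower b, since the tables do not tell which replicate number each has. The shallow sample library b also stood apart. Over 12578 genes with a mean of at least 50 normalized read counts, the log2 ratio of library a to library b had an SD of 0.413 in the sample pair, 0.207 in the mock pair and 0.173 in the untransfected pair. All 6 mesenchymal and osteosarcoma markers looked at (RUNX2, COL1A1, COL1A2, SPARC, ALPL and VIM) had reads in every library. So did the 4 epithelial markers described further below, so having reads does not tell these cell types apart. Blood cell markers summed to between 12.4 and 24.7 normalized read counts over 5 genes. Nothing in the labels tells whether the libraries of a group came from different cultures. The p-values therefore rest on the spread between these libraries alone, which may be technical.

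Upstream sequences of HES1, HEYL and NOTCH3 are shown because HES1 and NOTCH3 were the core genes that fell with both plasmid sets in the authors' deposited tables, while HEYL is a target whose level was not shown to change. The sequences are the 250 bases before the RefSeq gene start (GRCh38.p14), written 5′ to 3′ on the gene's strand. Capitals mark TGGGAA, the core letters of the RBPJ recognition motif, on either strand (TTCCCA when read on the other strand). The sequences lie at chr3:194135898-194136147 on the plus strand for HES1, chr1:39639644-39639893 on the minus strand for HEYL and chr19:15200996-15201245 on the minus strand for NOTCH3. Gene coordinates given further below are those of the counted entries, whose starts differ from the RefSeq gene starts used here. The HES1 and HEYL windows therefore overlap the 5′ ends of those entries.
HES1: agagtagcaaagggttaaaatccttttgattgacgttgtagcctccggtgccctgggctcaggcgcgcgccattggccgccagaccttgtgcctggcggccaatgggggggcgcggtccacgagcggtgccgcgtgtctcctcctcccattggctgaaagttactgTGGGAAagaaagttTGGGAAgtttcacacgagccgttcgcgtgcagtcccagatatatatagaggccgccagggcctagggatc
HEYL: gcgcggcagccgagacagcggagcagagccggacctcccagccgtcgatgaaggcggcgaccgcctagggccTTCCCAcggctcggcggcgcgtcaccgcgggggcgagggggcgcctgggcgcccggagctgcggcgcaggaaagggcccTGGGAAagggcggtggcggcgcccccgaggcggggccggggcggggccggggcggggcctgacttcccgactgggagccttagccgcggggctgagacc
NOTCH3: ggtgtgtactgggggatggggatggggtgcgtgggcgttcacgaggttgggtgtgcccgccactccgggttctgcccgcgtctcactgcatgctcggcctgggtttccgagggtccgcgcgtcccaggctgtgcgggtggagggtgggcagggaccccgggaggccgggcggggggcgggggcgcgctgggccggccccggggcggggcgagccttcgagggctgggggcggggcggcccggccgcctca

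The HES1 sequence held TGGGAA at positions -84 to -79 and -70 to -65, counted from -1 for the base before the gene start, both on the gene's strand. The first of them also matches GTGGGAA. The HEYL sequence held the core at -178 to -173 on the other strand and at -99 to -94 on the gene's strand, and the NOTCH3 sequence held none. The first HEYL core matches GTGGGAA and also the longer CGTGGGAA. Of 35116 RefSeq promoters of the same length, 20.8% held at least 1 TGGGAA, 2.9% at least 2 and 5.43% at least 1 GTGGGAA and 0.72% at least 1 CGTGGGAA, on either strand. Sequences were found for 8 of the 10 genes, and of these 8 only HES1 and HEYL held the core. In a wider list of Notch targets (HES1, HES4, HES5, HES7, HEY1, HEY2, HEYL, NRARP and DTX1) 5 of 7 with a sequence held it. The median G and C content of the 8 windows was 77%, against 58% over all promoters. The letters are a description of the sequence and show no binding.

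Against untransfected cells the receptor gene NOTCH3 fell most among the 10 genes with both plasmid sets, HES1 fell by more than a factor of 2 with both, and the ligand genes JAG2 and DLL1 fell in mock cells. NOTCH2 and JAG1, the most abundant receptor and ligand, rose slightly in mock cells. Of the 9 genes tested, 2 rose and 4 fell in mock against untransfected cells at an adjusted p under 0.05 in the authors' deposited DESeq2 table, where 50.9% of 17097 genes tested were called (27.5% higher, 23.3% lower). In sample against untransfected cells 0 rose and 2 fell, where 37.3% of 15567 genes were called (20.2% higher, 17.1% lower). With so many genes called, these counts show nothing particular to the Notch genes. The median deposited log2 fold change of the 9 genes was 0.14 in mock and 0.16 in sample cells, beside -0.00 over all genes tested in each table. Both comparisons share the untransfected libraries, so they are not independent of each other.

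**Figure D1:**
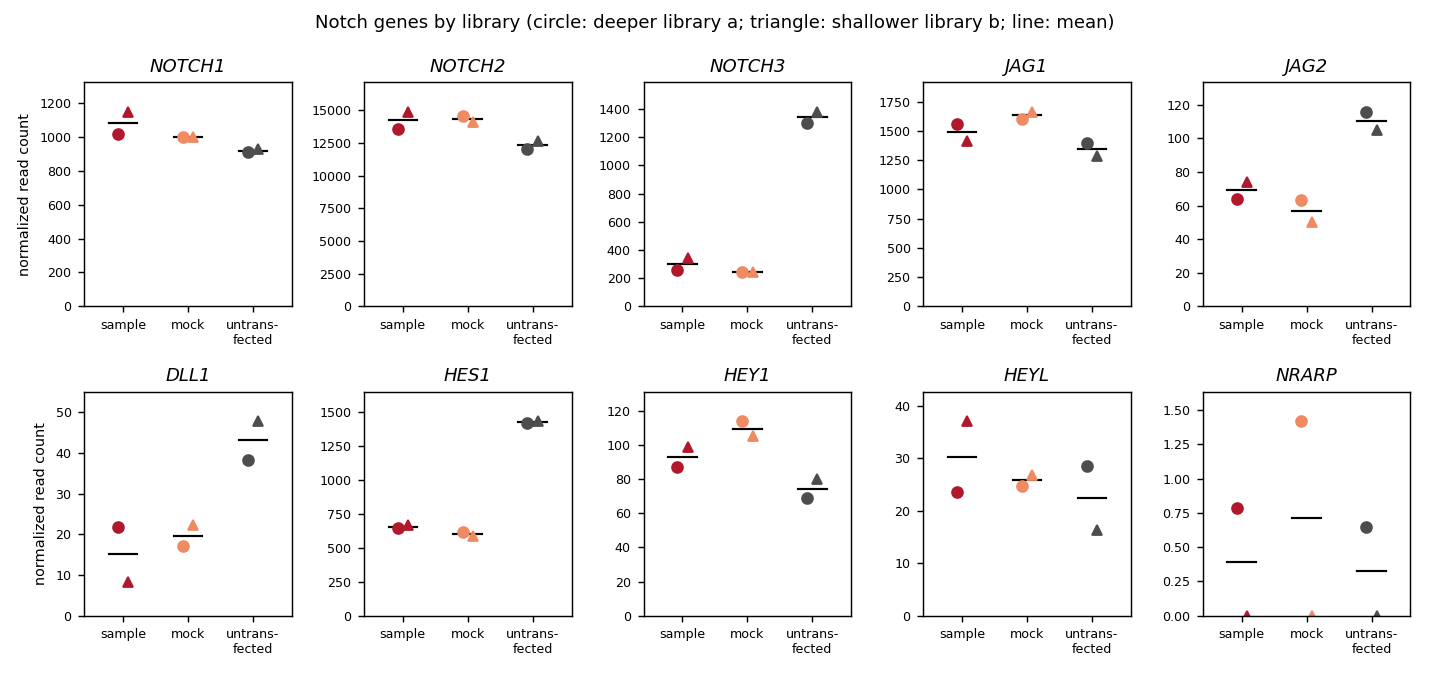
Normalized read counts (vertical axes, from 0) of the 10 Notch genes in the sample, mock and untransfected groups; each point is 1 library (circle a, triangle b) and the line is the mean of 2. NOTCH3 and HES1 in all 4 transfected libraries lie far below both untransfected libraries, while NOTCH1, NOTCH2 and JAG1 lie close together.

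NOTCH3 (chr19:15159633-15200981, hg38) codes for a receptor with a restricted pattern of expression, best known from vascular smooth muscle. It stood at 258 and 346 normalized read counts in sample cells, 243 and 245 in mock cells, and 1304 and 1382.6 in untransfected cells. All transfected libraries were far below both untransfected ones, and the sample pair was the least even. The authors' deposited tables gave log2 fold changes of -2.13 (SE 0.18, adjusted p = 5.46e-30) for sample and -2.41 (SE 0.12, adjusted p = 3.07e-89) for mock against untransfected cells. Limma put the level at 0.206 of that in untransfected cells for the sample group (95% interval 0.168 to 0.253) and at 0.182 for the mock group (0.151 to 0.218). Of all genes tested in the deposited tables, 1.13% had a lower fold change than NOTCH3 in sample cells and 1.33% in mock cells. In bulk RNA, fewer cells with a transcript and less of it per cell cannot be told apart.

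NOTCH1 and NOTCH2, the broadly expressed receptors, did not share this fall. NOTCH2 (chr1:119911553-120069703) stood at 13564 and 14889.0 normalized read counts in sample cells, 14512 and 14095 in mock cells, and 11999 and 12633 in untransfected cells. Every transfected library was above both untransfected ones, by a small margin. Its log2 fold change in the authors' deposited tables was 0.20 (SE 0.10, adjusted p = 0.0992) in sample and 0.23 (SE 0.07, adjusted p = 0.000954) in mock cells, so the rise passed the test in mock cells. By limma it passed in sample cells as well (adjusted p = 0.042), but not with TMM normalization (adjusted p = 0.0998), nor without library a (0.228) or b (0.0987) of the untransfected group or library b of the sample group (0.129). In limma fits that left out any 1 library of the comparison, the rise in mock cells did not pass (adjusted p = 0.0541 to 0.179), nor did it with TMM (adjusted p = 0.0684). A shorter NOTCH2 entry, whose reads overlap those of the main one, had 0.13 and 0.22 in the same tables. NOTCH2 shares nearly identical sequence with the NOTCH2NL genes, of which NOTCH2NLA averaged 39.9 normalized read counts, so some reads could be split between them.

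NOTCH1 (chr9:136494433-136545786) stood at 1013.9 and 1149 normalized read counts in sample cells, 996 and 997 in mock cells, and 908 and 926 in untransfected cells. The transfected libraries were above the untransfected ones, but neither deposited test passed, with log2 fold changes of 0.22 (adjusted p = 0.242) in sample and 0.14 (adjusted p = 0.264) in mock cells. The fourth receptor, NOTCH4, had 46.2 and 32.9 normalized read counts in sample, 44 and 42.7 in mock, and 62.4 and 69.8 in untransfected cells, and did not pass in the deposited tables (adjusted p = 0.318 and 0.165). By limma NOTCH4 passed as lower in mock cells (adjusted p = 0.037) but not in sample cells (adjusted p = 0.0714).

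The make-up of the receptor RNA therefore differed between groups. Divided by transcript length, NOTCH2 led in every library, with means of 1249 normalized reads per kb in sample cells, 1256 in mock cells and 1081 in untransfected cells. In untransfected cells NOTCH3 came next with 155 and then NOTCH1 with 98.5 reads per kb. In transfected cells that order was turned round, with NOTCH1 at 116 and NOTCH3 at 34.9 reads per kb in sample cells, and 107 and 28.1 for the same genes in mock cells. NOTCH3 made up 2.23% and 2.7% of the summed receptor level per kb in sample cells, 1.98% and 2.05% in mock cells, and 11.5% and 11.6% in untransfected cells. The sum over the 4 receptors ranged from 1337 to 1476 reads per kb in sample, 1379 to 1416 in mock and 1311 to 1379 in untransfected libraries, and the sample range overlapped both others.

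**Figure D2:**
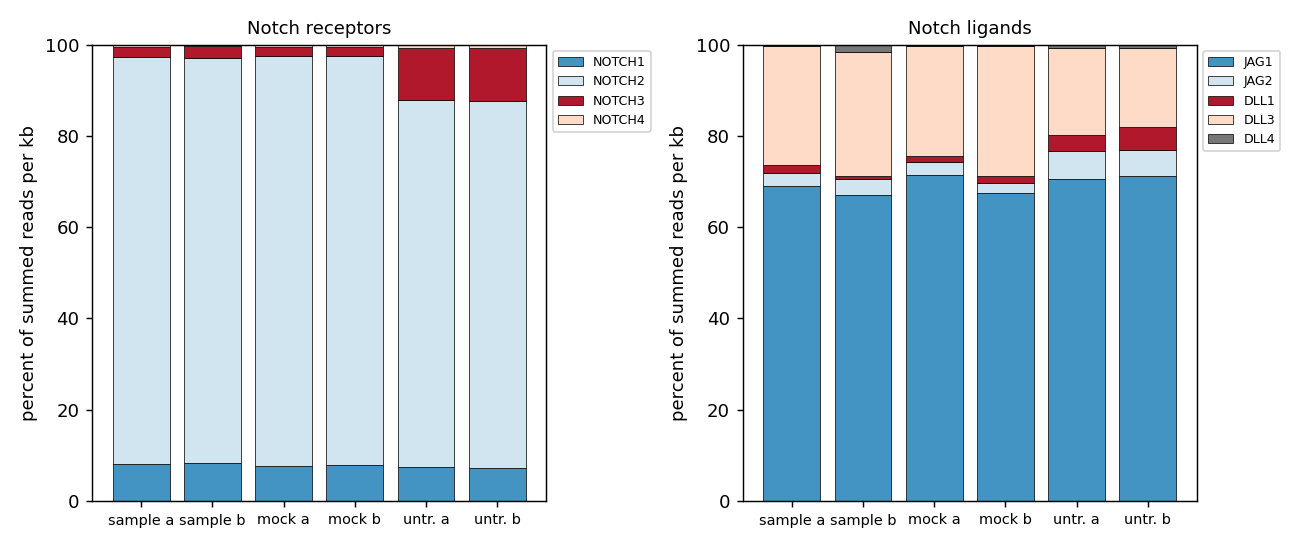
Percent of the summed normalized reads per kb (vertical axes) in the 2 sample, 2 mock and 2 untransfected (untr.) libraries. Left, each Notch receptor, and right, the ligands JAG1, JAG2, DLL1, DLL3 and DLL4, without DLK2. The NOTCH3 segment is 11.5% and 11.6% in untransfected libraries and at most 2.7% in the others; among ligands JAG1 is the largest segment in every library.

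Among the ligands, JAG1 was the most abundant per kb in all libraries, and the scarcer JAG2 and DLL1 fell in mock cells. JAG2 (chr14:105140981-105168824) stood at 64.2 and 74.1 normalized read counts in sample cells, 63.1 and 50.1 in mock cells, and 116 and 105 in untransfected cells. All transfected libraries were below both untransfected ones. The authors' deposited log2 fold change was -0.61 (SE 0.34, adjusted p = 0.158) in sample and -0.87 (SE 0.28, adjusted p = 0.00454) in mock cells. By limma the difference passed in sample cells as well (adjusted p = 0.0181), at 0.603 of the level in untransfected cells (95% interval 0.432 to 0.842). That call was lost without library a of the untransfected group (adjusted p = 0.0936) or library a of the sample group (adjusted p = 0.271).

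DLL1 (chr6:170282206-170290609) is a Delta-type ligand and was scarce. Sample cells had 28 and 2 reads (21.9 and 8.24 normalized read counts), mock cells 24 and 24 (17 and 22.3), and untransfected cells 59 and 67 (38.3 and 47.8). There was no overlap between transfected and untransfected libraries. The deposited log2 fold change was -0.88 (SE 0.48, adjusted p = 0.144) in sample and -0.93 (SE 0.40, adjusted p = 0.0426) in mock cells. By limma the fall passed in sample cells as well (adjusted p = 0.0275), but not without library b of the untransfected group (adjusted p = 0.108). In limma fits the fall in mock cells did not pass without library b of the untransfected group (adjusted p = 0.0765) or library a of the mock group (adjusted p = 0.123). The gene overlaps FAM120B, which averaged 708 normalized read counts. Whether the authors counted by strand is not given in the sources used here, so reads of the overlap cannot be assigned with certainty.

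JAG1 (chr20:10637684-10674046) stood at 1561.5 and 1416 normalized read counts in sample cells, 1600.4 and 1665 in mock cells, and 1393 and 1289 in untransfected cells. All transfected libraries were above both untransfected ones, the lower sample library only just. Its deposited log2 fold change was 0.16 (SE 0.14, adjusted p = 0.396) in sample and 0.30 (SE 0.09, adjusted p = 0.00314) in mock cells. The rise in mock cells did not pass by limma without library b of the untransfected group (adjusted p = 0.126) or library b of the mock group (adjusted p = 0.0753). Per kb, the levels of the core ligands in untransfected cells ran from JAG1 with 226 reads per kb through JAG2 with 18.9 to DLL1 with 13.6. DLL3, a Delta-type protein that mostly inhibits Notch in its own cell, stood between JAG1 and JAG2 with 58.1 reads per kb. So did DLK2, a Delta-like protein, with 109 reads per kb.

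The target genes did not move together. HES1 (chr3:194136142-194138612), the repressor best known as a direct Notch target, stood at 647 and 667 normalized read counts in sample cells, 616 and 590 in mock cells, and 1420.3 and 1435.4 in untransfected cells. The pairs were close and the transfected libraries were all far below the untransfected ones. The authors' deposited log2 fold changes were -1.10 (SE 0.14, adjusted p = 1.75e-13) in sample and -1.21 (SE 0.10, adjusted p = 3.46e-31) in mock cells. By limma the level was 0.457 of that in untransfected cells for the sample group (95% interval 0.397 to 0.527) and 0.423 for the mock group (0.373 to 0.48). HES1 is also controlled by its own product and by other pathways, and these were not measured. DTX1, from the wider target list, also pointed down. Its deposited log2 fold changes were -0.73 (adjusted p = 0.0538) in sample and -0.51 (adjusted p = 0.0512) in mock cells, so neither passed. By limma DTX1 passed as lower in both (adjusted p = 0.00907 and 0.0134). HES4 and HES7 had few reads and did not pass in either deposited table.

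HEY1 (chr8:79764010-79767863) pointed the other way. It stood at 86.8 and 98.8 normalized read counts in sample cells, 114 and 105 in mock cells, and 68.9 and 79.8 in untransfected cells. Its deposited log2 fold change was 0.26 (adjusted p = 0.609) in sample and 0.54 (SE 0.26, adjusted p = 0.0743) in mock cells, so neither passed. By limma the difference in mock cells passed (1.48 times the level in untransfected cells, 95% interval 1.13 to 1.95, adjusted p = 0.0189), and the shorter HEY1 entry had a deposited log2 fold change of 0.44 (adjusted p = 0.204). The limma call was lost without library a of the untransfected group (adjusted p = 0.146), without library a of the mock group (adjusted p = 0.112) and with the shorter entry (adjusted p = 0.06).

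HEYL (chr1:39623431-39639676), a repressor of the same family, had 23.5 and 37.1 normalized read counts in sample cells, 24.8 and 26.9 in mock cells, and 28.6 and 16.4 in untransfected cells. The groups overlapped and no test passed (adjusted p = 0.755 and 0.782 in the deposited tables), with limma intervals of 0.666 to 2.2 times and 0.676 to 2.05 times the level in untransfected cells. The upstream windows of HES1 and HEYL both held 2 TGGGAA cores. Whether these cores bear on the RNA levels was not tested. NRARP (chr9:137299631-137302251) had 1 and 0 reads in sample cells, 2 and 0 in mock cells, and 1 and 0 in untransfected cells, so it could not be compared. A library could hold up to 3 reads by the limit that a count of 0 allows, which is 12.4 normalized read counts in sample library b and between 1.95 and 2.78 in the others, for counting error only.

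**Figure D3:**
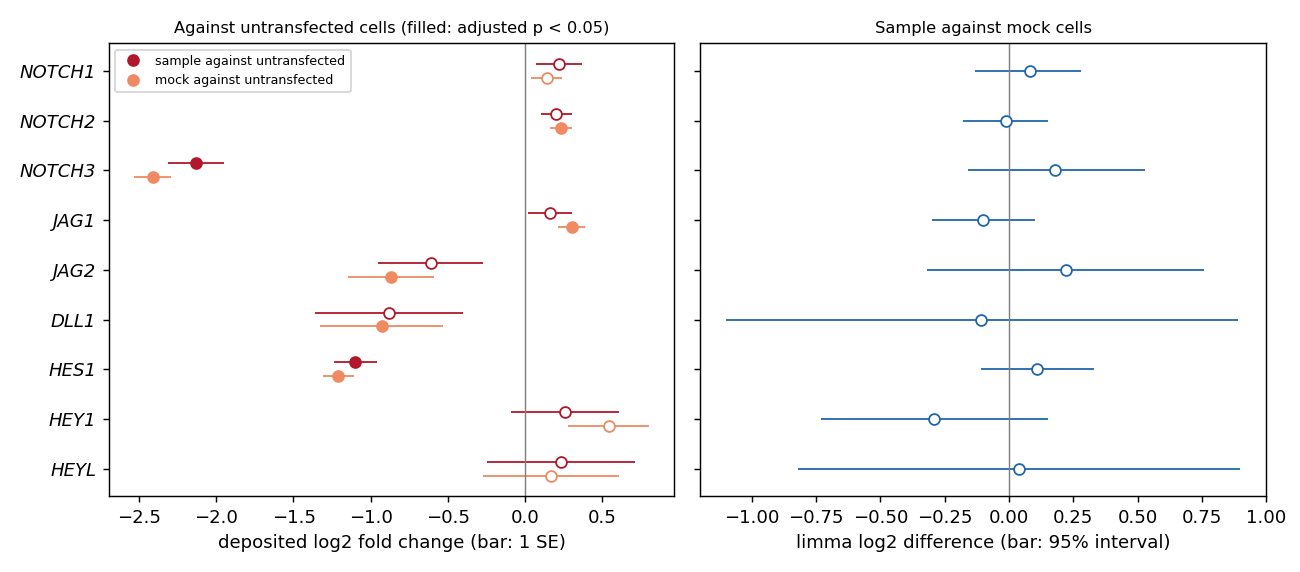
Left, the authors' deposited log2 fold changes (horizontal axis, bars 1 SE) of 9 Notch genes in sample and mock against untransfected cells, filled where the adjusted p was under 0.05; right, limma log2 differences of sample against mock cells with 95% intervals. NOTCH3 and HES1 are filled in both comparisons on the left, and all 9 intervals on the right include 0.

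Between the transfected groups 0 of 9 Notch genes were called in either direction by the authors' deposited DESeq2 test, 0 had an unadjusted p under 0.05, and 0 passed by limma. Over all genes 0.0654% of 15287 were called in that deposited table (0.00654% higher, 0.0589% lower), and by limma 0 of 14892 were. Unadjusted p-values under 0.05 numbered 297 and 650 in those tests. A missed test does not show that the groups act alike, so the intervals matter more. Sample over mock, limma gave 1.13 times for NOTCH3 (95% interval 0.894 to 1.44), 1.08 for HES1 (0.926 to 1.26), 0.991 for NOTCH2 (0.884 to 1.11), 1.05 for NOTCH1 (0.912 to 1.22) and 0.931 for JAG1 (0.81 to 1.07). The scarce genes were less well bounded, with 1.17 for JAG2 (0.802 to 1.7), 0.816 for HEY1 (0.601 to 1.11), 1.03 for HEYL (0.567 to 1.87) and 0.929 for DLL1 (0.465 to 1.86). Of 55 core and further pathway genes tested by limma, 2 had an unadjusted p under 0.05 (3.64%, beside 4.36% of all genes). They were NEURL1B, at 1.27 times (1.06 to 1.54), and DLK2, at 1.38 times (1.02 to 1.87). Neither passed after adjustment (limma adjusted p = 0.958 for each). The smallest p that an exact permutation test of 2 libraries against 2 could give is 0.333, so single values were not tested in that way.

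Of 55 further pathway genes listed, 54 were matched and 50 were tested in mock against untransfected cells. There 11 rose and 14 fell (50% called, beside 50.9% of all genes), with a median deposited log2 fold change of -0.06. In sample against untransfected cells 7 rose and 11 fell of 49 tested (36.7%, beside 37.3% of all genes), with a median of 0.01. As a list these genes thus changed about as often as genes in general, and the named ones below are single changes.

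Among further ligands, DLL3 rose with deposited log2 fold changes of 0.69 in sample (adjusted p = 0.0351) and 0.82 in mock cells. DLK2, a Delta-like protein without the usual receptor-binding domain, fell in mock cells (-0.98). Its fall in sample cells passed by limma (adjusted p = 0.0186) but not by the deposited test (adjusted p = 0.152). DLL3 stood at 204 and 198 normalized read counts in sample, 186 and 243 in mock, and 130 and 109 in untransfected cells. Its rise in sample cells did not pass by limma without library b of the untransfected group (adjusted p = 0.0651) or library a of the sample group (adjusted p = 0.0846). DLK1, HES5 and HEY2 had no reads in any library.

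Enzymes that mature or cut the receptors went both ways. FURIN, which cleaves receptors on their way to the surface, rose with deposited log2 fold changes of 1.17 in sample and 1.07 in mock cells. It stood at 3441.5 and 4525 normalized read counts in sample, 3546 and 3640 in mock, and 1661 and 1800.3 in untransfected cells. APH1B, a gamma-secretase subunit, fell (-0.80 and -0.77), and PSEN2, a catalytic subunit, rose (0.47 and 0.64), in the same order of tables. The proteases ADAM10 and ADAM17 and the subunits PSENEN, NCSTN and APH1A did not pass in either table. Of the sugar-adding enzymes, POFUT1, which puts O-fucose on receptors, rose (0.48 and 0.60). LFNG, which extends that fucose and shifts ligand preference, fell (-0.38 and -0.37). POGLUT1 passed as higher in sample cells only by limma (adjusted p = 0.0424) and rose in mock cells by the deposited test (0.40). By limma without any 1 library of the comparison, POGLUT1 did not pass (adjusted p = 0.0534 to 0.151), and PSEN2 in sample cells did not pass without library a of the sample group (adjusted p = 0.0573).

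In the nuclear complex the DNA-binding partner RBPJ rose, with deposited log2 fold changes of 0.37 in sample and 0.42 in mock cells. Of 8 genes in this list 1 rose and 3 fell in sample cells, and 2 rose and 3 fell in mock cells. That is 50% and 62.5% called by the deposited test, beside 37.3% and 50.9% of all genes tested. The genes that fell were the co-activator genes MAML2, by 1.19 and 1.42, and MAML3, by 1.00 and 0.67, and the acetyltransferase gene KAT2B, by 0.67 and 0.85 on the log2 scale. SNW1, a co-activator gene, rose in mock cells (0.34, adjusted p = 0.000111 in the authors' deposited DESeq2 table). MAML2 stood at 106 and 148 normalized read counts in sample, 116 and 94.6 in mock, and 285 and 309 in untransfected cells. MAML1 and the acetyltransferase genes EP300 and CREBBP did not pass in either table. By limma MAML3 did not pass in mock cells without library b of the untransfected group (adjusted p = 0.0836) or library b of the mock group (adjusted p = 0.076), nor in sample cells without library a of the sample group (adjusted p = 0.0698).

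HES6, which opposes HES1, fell with deposited log2 fold changes of -1.55 in sample and -1.48 in mock cells, and the co-repressor gene TLE2 with -0.96 and -1.15. HES6 stood at 153 and 124 normalized read counts in sample, 157 and 151 in mock, and 450 and 440 in untransfected cells. SPEN, a co-repressor of RBPJ, rose in both deposited tables (0.60 and 0.39), though in mock cells it did not pass by limma (adjusted p = 0.0566). In sample cells SPEN did not pass by limma with TMM (adjusted p = 0.06) or without library a (0.108) or b (0.109) of the untransfected group. TLE1 fell in mock cells (-0.31), but not by limma without library b of the untransfected group (adjusted p = 0.126) or library b of the mock group (adjusted p = 0.0923).

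Of 11 turnover and trafficking genes 1 rose and 4 fell in sample cells, and 3 rose and 5 fell in mock cells. The deposited test thus called 45.5% and 72.7% of them, beside 37.3% and 50.9% of all genes tested. The list as such was not tested. Among genes for ubiquitin ligases that act on ligands, NEURL1B fell with deposited log2 fold changes of -1.29 in sample and -1.67 in mock cells, MIB2 with -0.60 and -0.78, and MIB1 with -0.58 and -0.42, while NEURL1 did not pass (adjusted p = 0.859 and 0.736 by the authors' deposited DESeq2 test). DTX4, a Deltex-type ligase gene, fell too (-0.41 and -0.45), though in sample cells it did not pass by limma without library a of the sample group (adjusted p = 0.219). NUMB, which codes for an inhibitor of Notch receptors, rose with 0.39 in sample and 0.36 in mock cells. In mock cells FBXW7, whose product marks the cleaved receptor for degradation, rose (0.42), as did the ligase gene ITCH (0.16), and the NUMB relative NUMBL fell (-0.41). By limma ITCH and NUMBL did not pass in mock cells (adjusted p = 0.0817 and 0.0675), whereas FBXW7 did (adjusted p = 0.00512). In sample cells FBXW7 passed as higher by limma (adjusted p = 0.0351) but not by the deposited test (adjusted p = 0.195).

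**Figure D4:**
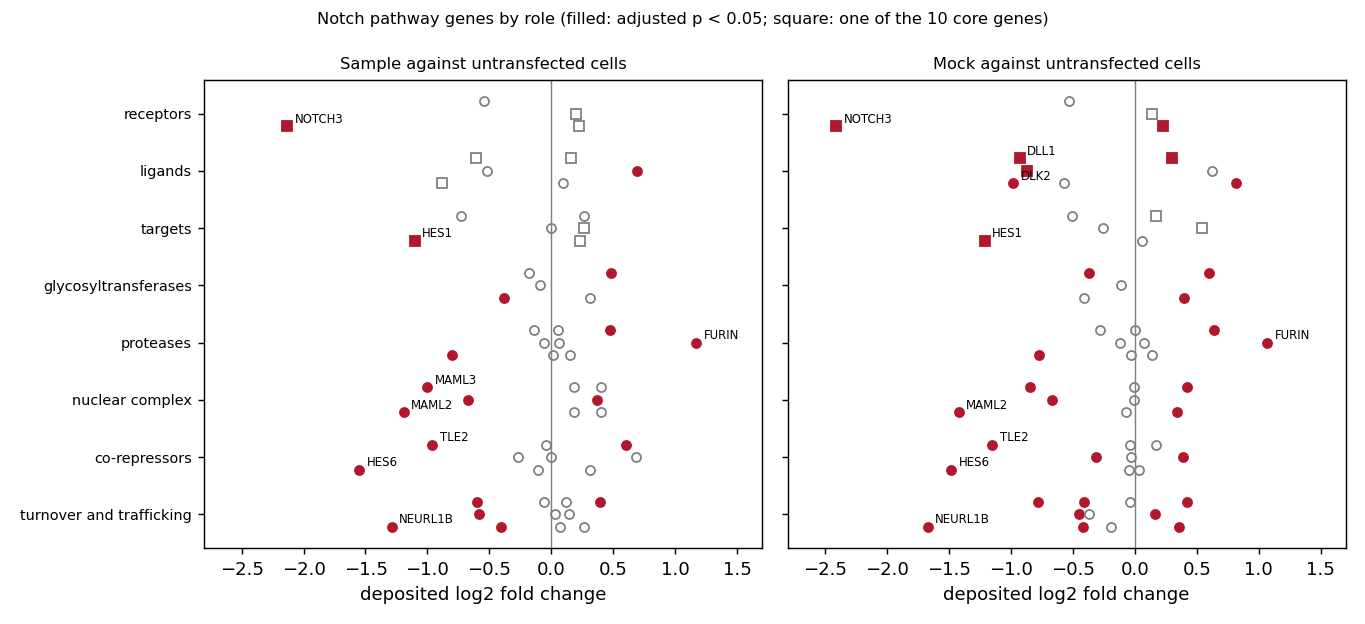
The authors' deposited log2 fold changes (horizontal axes) of Notch pathway genes by role (vertical axis) in sample and mock against untransfected cells; points are genes, filled at an adjusted p under 0.05, squares the 10 core genes. NOTCH3 lies furthest to the left and FURIN furthest to the right in both panels.

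Some markers of other cell types, and some of the cells' own type, moved with these falls. The 4 epithelial markers (EPCAM, KRT5, KRT14 and CDH1) summed to 185 to 232 normalized read counts in sample, 195 to 239 in mock and 906 to 993.5 in untransfected libraries, with none at 0. EPCAM, KRT5 and KRT14 fell in both deposited tables, and CDH1 did not pass in either. The 5 endothelial markers (PECAM1, CDH5, TEK, KDR and VWF) summed to 50.9 to 57.7 in sample, 47.3 to 49.6 in mock and 170.2 to 199.6 in untransfected libraries, and up to 2 of them were at 0. Most of that difference was in VWF, with 20.3 and 8.24 normalized read counts in sample, 17.7 and 10.2 in mock, and 130 and 140 in untransfected cells. TEK did not pass, and PECAM1, CDH5 and KDR were near 0. Of the 6 mesenchymal and osteosarcoma markers, RUNX2 fell with deposited log2 fold changes of -1.76 in sample and -2.49 in mock cells, SPARC fell with -0.60 in each, and ALPL rose with 3.05 and 3.62. In mock cells COL1A1 also fell (-0.51) and VIM rose (0.20) in the deposited table, though neither passed by limma (adjusted p = 0.145 and 0.206). The part of these markers in the changes of NOTCH3, HES1, JAG2 and DLL1 was not tested.

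The genes whose profile over the 6 libraries lay nearest to that of a Notch gene were found by the root mean square distance of centred log2 values among 12578 genes. For NOTCH3 they were AMOT, which codes for a scaffold of cell junctions (distance 0.0584), and ROR1, a receptor tyrosine kinase gene (0.0587). For HES1 they were LRRC1 (0.0322) and the kinase gene PIM1 (0.0374), and for NOTCH2 they were MRS2 (0.00911) and CCAR2 (0.0223). With 3 groups of 2, many genes share such a profile.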

How the data were processed

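RNA from 6 libraries of U2OS 2-6-3 cells was measured with a directional kit, per the labels' protocols. The submitters' processing notes name Bowtie, STAR, DESeq2 and hg38; their versions, the annotation and whether counting used strand are not stated there. For each of 40029 entries the 3 deposited tables hold, per the file headers, a mean signal of normalized read counts over 4 libraries, the authors' log2 fold change with its SE, the test statistic, a score, and the deposited p-value before and after adjustment. Several deposited fold changes lie closer to 0 than those of limma.

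Per-library counts are not in the tables as columns. Each mean is a sum of whole counts over size factors, so the counts were solved by lattice reduction: 30527 of 30527 entries with reads met the 3 means within a relative tolerance of 1e-14, and 3982 of 3982 simulated entries were recovered. Counts were divided by median-of-ratios size factors. Symbols came from RefSeq and then GENCODE tables (99.3% of entries), and lengths from GENCODE 29 transcripts. The authors' deposited DESeq2 result is the main test, with 4 libraries per comparison, and stands in for an edgeR fit because the 3 tables have no column of counts; limma-voom (limma 3.58.1, R 4.3.3) on all 6 libraries, for 14892 genes with a mean of at least 10, is the alternative, tested on simulated data. Both use Benjamini-Hochberg adjustment.

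The genes and lists were chosen with earlier results of these data known. All 10 core genes are named; of other pathway genes, up to 4 called ones per role with a mean of at least 50 and the largest change, and those under 1 in every group. Other genes are named as not passing, as markers, as background or, for SNW1, NUMB, NUMBL, FBXW7 and ITCH, to complete their lists, chosen after their values were seen. Other alternatives changed the threshold, low-count filter, normalization, entry and libraries. Python 3.11.15, numpy 2.4.6, pandas 2.3.3 and matplotlib 3.10.9 were used.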

Additional observations from a re-analysis of the deposited data

How the results depend on the processing

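NOTCH3 and HES1 stayed called as lower in both comparisons with untransfected cells under all alternatives run. No value of a core or other named pathway gene changed sign with a call. No paired analysis was possible because the tables do not tell which library has which replicate number. Requiring an absolute log2 fold change of at least 1 left 2685 genes, 7 pathway genes and 2 core genes called in mock, and 1854 genes and 7 pathway genes in sample against untransfected cells, against 8694, 31, 6, 5803 and 20 without it. Core genes called in sample against untransfected cells numbered 5 by limma and 4 by limma with TMM, against 2 in the deposited table. Over all genes limma called 50.9% of 14892 in that comparison, against 37.3% of 15567 in the deposited table. Between the transfected groups, 4 genes were called at 0.01, 0 with that fold, and 0 by limma with either normalization, against 10 deposited. Leaving out 1 library (limma), the counts for mock against untransfected cells ranged from 6785 to 7067 genes, 22 to 26 pathway genes and 4 to 5 core genes. For sample against untransfected cells they ranged from 5568 to 8172, 18 to 31 and 3 to 5, with the highest pathway count without sample library b. For sample against mock cells they ranged from 0 to 807 genes, 0 to 6 pathway genes and 0 to 0 core genes. The 807 and 6 arose without sample library a, where the shallow library b stands alone for its group and is assumed to vary like the others; the cause was not tested.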
